A study of Mus musculus with 4 samples.

Results

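The Ink4 and Cip/Kip genes encode the 2 families of cyclin-dependent kinase (Cdk) inhibitors. Their H3K27me3, the repressive histone mark laid down by Polycomb repressive complex 2 (PRC2), is described here in alveolar macrophages, the resident phagocytes of the lung airspaces. The set was proposed with earlier results of these data known, and its members were taken by gene symbol, by a rule that uses no measured value: Cdkn2a, Cdkn2b, Cdkn2c and Cdkn2d of the Ink4 family and Cdkn1a, Cdkn1b and Cdkn1c of the Cip/Kip family. All 7 were found among the 27095 genes counted. The mark was profiled by Cut&Tag, in which an antibody directs a transposase to cut and tag nearby chromatin. All 4 libraries came from C57BL/6 background cells sorted from lungs of chimeras: irradiated Ly5.1 recipients were given 10% wild-type Ly5.1 marrow together with 90% Ly5.2 marrow, which was wild type for 2 libraries and Suz12 cKO (conditional knockout) for the other 2. Suz12 is a core subunit of PRC2. The sources used here do not give the Cre driver, the age of the mice or whether only Ly5.2 cells were sorted, so wild-type cells may be present in the cKO libraries. Where signal is lower, fewer cells with the mark and less mark per cell cannot be told apart.

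Ink4 proteins bind Cdk4 and Cdk6 and block their pairing with D-type cyclins, which keeps the retinoblastoma protein active and holds cells in G1. Cip/Kip proteins bind complexes of cyclin and Cdk more broadly, including those of Cdk2. Cdkn2a also encodes p19ARF, which stabilises p53, from an upstream first exon, while p16INK4A begins at a downstream first exon. The neighbouring genes Cdkn2a and Cdkn2b are textbook Polycomb targets, kept silent by H3K27me3 in young proliferating cells. Cdkn1c lies in an imprinted domain, and Cdkn1a is a classical p53 target.

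Promoter sequences are shown for the pair that was lower in cKO and, for contrast, for Cdkn1b, whose promoter is rich in CG dinucleotides but which carried little mark, since Polycomb is known to favour CG-rich promoters. Each is the 250 bases before a RefSeq start on GRCm38.p6 (the mm10 assembly), 5′ to 3′ on the gene's strand, with every CG in capitals. The counts cover whole genes and their flanks, so they do not say whether the mark lay on these bases.
Cdkn2b, chr4:89311033-89311282, minus strand: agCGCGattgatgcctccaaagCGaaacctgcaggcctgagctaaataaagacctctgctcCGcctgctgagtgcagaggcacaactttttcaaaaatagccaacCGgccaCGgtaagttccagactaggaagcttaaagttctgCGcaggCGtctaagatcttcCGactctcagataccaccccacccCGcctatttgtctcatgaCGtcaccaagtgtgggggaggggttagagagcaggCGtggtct
Cdkn2a upstream start, chr4:89294620-89294869, minus strand: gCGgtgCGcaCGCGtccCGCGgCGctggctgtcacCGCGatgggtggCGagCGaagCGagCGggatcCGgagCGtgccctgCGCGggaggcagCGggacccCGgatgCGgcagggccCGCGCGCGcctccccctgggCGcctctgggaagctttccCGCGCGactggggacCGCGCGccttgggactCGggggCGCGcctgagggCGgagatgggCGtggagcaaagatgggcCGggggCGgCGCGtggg
Cdkn2a downstream start, chr4:89282193-89282442, minus strand: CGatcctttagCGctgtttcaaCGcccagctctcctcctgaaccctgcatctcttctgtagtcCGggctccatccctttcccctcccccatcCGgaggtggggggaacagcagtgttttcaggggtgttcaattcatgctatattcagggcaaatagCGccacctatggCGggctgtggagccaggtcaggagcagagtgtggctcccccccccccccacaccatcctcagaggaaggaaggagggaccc
Cdkn1b, chr6:134920151-134920400, plus strand: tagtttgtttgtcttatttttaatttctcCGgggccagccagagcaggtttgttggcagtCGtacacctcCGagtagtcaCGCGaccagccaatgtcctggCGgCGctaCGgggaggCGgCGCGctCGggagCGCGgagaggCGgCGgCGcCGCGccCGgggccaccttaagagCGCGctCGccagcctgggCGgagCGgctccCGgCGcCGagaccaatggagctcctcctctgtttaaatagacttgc
The Cdkn2b promoter held 12 CG, the upstream Cdkn2a promoter 40 and the downstream one 7, against a median of 6 over 32851 promoters of this length. The Cdkn1b promoter held 28, more than 92.4% of those promoters. Promoters were listed for 6 of the members, 9 starts in all, with 2 CG (the first Cdkn1a start) to 40. The GC box GGGCGG, searched on both strands and itself holding a CG, occurred in 5 of the 9 and in 32.7% of all promoters. It was in the upstream Cdkn2a promoter and not in the 250 bases of Cdkn2b.

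Depth was 2592297 and 2142175 counts for wild type, against 3331138 and 3567282 for cKO. Values are given as CPM, counts scaled by the library size with TMM factors. Levels of different genes are compared as CPM per kb of the counted window, read as the gene with about 3 kb on each side. These values are shares of a library, and a genome-wide loss or gain at all genes alike is not visible in them. Of 16752 genes that passed a filter on low counts, 6.42% were called between genotypes by edgeR's quasi-likelihood test (Benjamini-Hochberg adjusted p below 0.05), and 1.96% were called lower in cKO. Both wild-type CPM lay above both cKO CPM at 23.8% of these genes. As a check of the label, the 12 alveolar macrophage marker genes carried little of this repressive mark, all below the median of tested genes. Their median level was 0.122 (wild type) and 0.134 (cKO) CPM per kb. Of these markers 7 were tested and 0 called, but their median log2 fold change (cKO over wild type) was 0.59, beside −0.01 for all tested genes. The 24 housekeeping genes stood as low, at a median of 0.102 in wild type, so a low level is not particular to these markers. The T and NK, B, lung epithelial and endothelial marker lists stood at 0.544, 0.701, 1.597 and 1.32 in wild type, and none of their tested members was called. The Suz12 window, at 3.84 ± 1.04 CPM (wild type) and 3.14 ± 0.313 CPM (cKO, both SD, n = 2), does not check the deletion. Neither Eed nor Ezh2, which also encode PRC2 core subunits, was called (adjusted p = 0.424 and 0.80).

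Mean wild-type H3K27me3 per kb differed 90.1-fold between the highest of the genes, Cdkn2a, and the lowest, Cdkn1a, which rests on 7 and 3 counts. Cdkn2a stood highest at 11.7 ± 1.97 CPM per kb (SD, n = 2), above 98.6% of tested genes. Cdkn1c followed at 4.63 ± 0.378 and Cdkn2b at 4.55 ± 0.0470, each above about 93% of tested genes, and these neighbours in the order did not differ beyond their spread. Cdkn2c stood at 0.596 ± 0.411, near the median of 0.672 over tested genes. Cdkn1b was at 0.318 ± 0.0428, Cdkn2d at 0.131 ± 0.185 and Cdkn1a at 0.130 ± 0.0602, though the Cdkn2d level cannot be read because other windows overlap most of its own. Cdkn2c and Cdkn1b did not differ beyond the spread of Cdkn2c. Both wild-type values of Cdkn1b lay above those of Cdkn1a, but at 10 and 7 counts against 7 and 3 their order is not settled. Cdkn2d was not compared with them, since per kb of unshared window its wild-type level was 2.67 CPM. In cKO the order was Cdkn2a at 9.28 ± 0.818 CPM per kb, Cdkn1c at 4.96 ± 0.469, Cdkn2b at 1.27 ± 0.218 and then the other 4, all at or below 0.401. The Cdkn2d level cannot be read in cKO either. Cdkn2b and Cdkn1c, level in wild type, lay apart by more than their SDs in cKO.

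**Figure D1:**
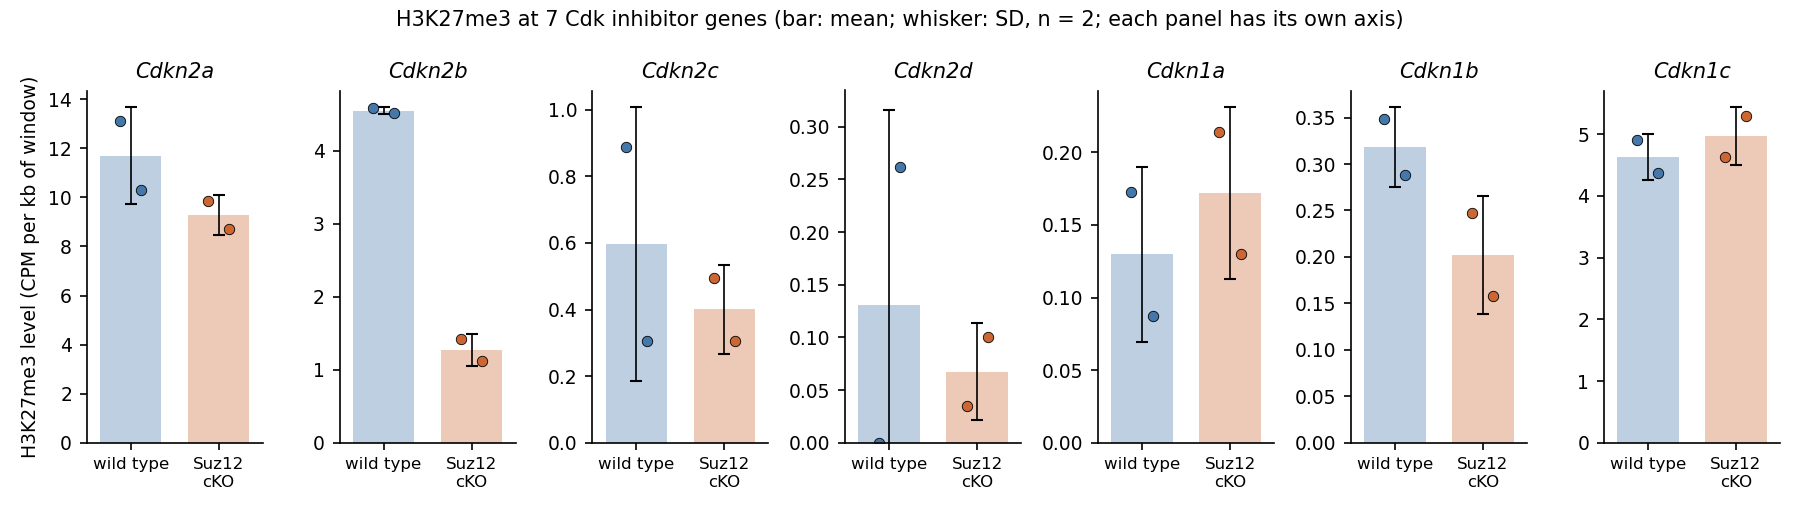
H3K27me3 level (CPM per kb of window) of each Cdk inhibitor gene by genotype, with points for libraries, bars for means and whiskers for SD (n = 2). Cdkn2b drops from 4.55 to 1.27 CPM per kb with no overlap, Cdkn2a is lower by a smaller fraction, and Cdkn1c overlaps between genotypes. Each panel has its own axis from 0.

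Cdkn2b, which encodes p15INK4B, lost most of its mark. Its window on chromosome 4 (gene at 89306289 to 89311032 in mm10, no overlap with other counted windows) held 127 and 106 counts in wild type, compared with 50 and 41 in cKO. These are 49.2 and 48.5 CPM against 15.3 and 11.97 CPM. The wild-type libraries nearly coincided, and both cKO libraries lay far below them although they were sequenced more deeply. The cKO mean was 27.9% of the wild-type mean, a log2 fold change of −1.84 ± 0.22 (SE, edgeR adjusted p = 3.12e-13). Counting error alone gives a pooled ratio of 0.278 with an exact binomial 95% interval of 0.216 to 0.356. Of the 329 genes called lower, 28 had a larger decrease and 7 a lower adjusted p. Among the 1254 other tested genes whose wild-type level was within 1.5-fold of that of Cdkn2b, 20 (1.59%) were called lower and none had a log2 fold change as low. Wild-type values enter both the choice of those genes and their change, so this is a description only.

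Cdkn2a, the strongest marked of the 7, fell by a smaller fraction of its level, although the difference in CPM was larger than at Cdkn2b. Its window (gene at 89274473 to 89294619, no overlap) held 883 and 589 counts in wild type and 843 and 779 in cKO, or 342 and 270 CPM against 258 and 228. The genotypes did not overlap, but the lower wild-type library lay nearer to the higher cKO library than to the other wild-type library. The log2 fold change was −0.34 ± 0.10 (SE, adjusted p = 0.0151), leaving 79.3% of the wild-type CPM. Without wild-type library 1 it was −0.15 (adjusted p = 0.564), without cKO library 1 −0.42 (adjusted p = 0.0719), without cKO library 2 −0.25 (adjusted p = 0.537), by DESeq2 −0.32 (adjusted p = 0.242), and with scaling to housekeeping genes −0.14 (adjusted p = 0.777). The call was lost in each of these. Of 472 other genes with a wild-type level within 1.5-fold of that of Cdkn2a, 2 (0.42%) were called lower and 30 higher. Among all tested genes 1.96% were called lower and 4.46% higher. A log2 fold change as low as that of Cdkn2a was found at 4 of the 472. As at Cdkn2b, wild-type values enter both the choice of those genes and their change, so this is a description only. The Cdkn2a window joins the promoters of p19ARF and p16INK4A, so which of them changed cannot be told apart.

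**Figure D2:**
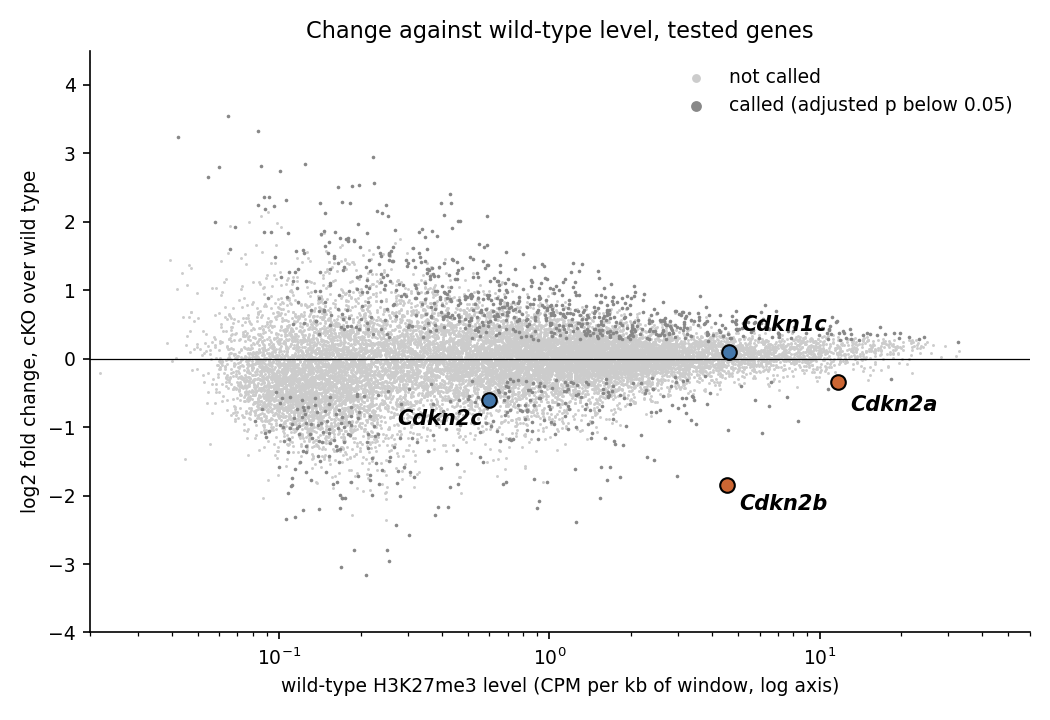
Log2 fold change of H3K27me3 (cKO over wild type) against wild-type level (CPM per kb, log axis) for the 16752 tested genes, with the 4 tested Cdk inhibitors named and the 2 called lower in orange. Cdkn2b, at 4.55 CPM per kb and −1.84, lies below the cloud of genes of its level.

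The unequal change of the neighbouring pair also shows as a ratio within each library, which no scaling between libraries can alter. Cdkn2b made up 12.6% (exact binomial 95% interval 10.6% to 14.8%) of the summed counts of Cdkn2a and Cdkn2b in wild-type library 1 and 15.3% (12.7% to 18.1%) in wild-type library 2. In the cKO libraries it made up 5.60% (4.18% to 7.32%) and 5.00% (3.61% to 6.72%). No interval of one genotype reached into the other, and the intervals cover counting error only. The means were 13.9% ± 1.89 and 5.30% ± 0.424 (SD, n = 2 each), a 2.63-fold difference, with a two-sided exact permutation p of 0.333, the smallest that 2 libraries against 2 allow. A like ratio was taken to Cdkn1c. The level of Cdkn2b per kb was 0.936 and 1.04 times that of Cdkn1c in the wild-type libraries and 0.307 and 0.210 times in the cKO libraries. The level of Cdkn2a was 2.67 and 2.36 times that of Cdkn1c in wild type and 2.13 and 1.64 times in cKO.

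The genes around the pair were looked at next. The gap between the Cdkn2a and Cdkn2b genes is 11.7 kb, and the windows are 5.67 kb apart. Within 500 kb of the pair, 23 other genes were counted, of which 12 were tested, 0 were called lower and 1 was called higher. With 1.96% of all tested genes called lower, a count of 0 among 12 is near the background and says nothing particular of the locus. Mtap, which salvages methionine and lies 125 kb from Cdkn2b, was hardly marked, with 21 and 20 counts in wild type and 28 and 25 in cKO (log2 fold change −0.12 ± 0.39). On the other side Dmrta1, a DM-domain transcription factor gene 377 kb away, had a wild-type level of 4.95 ± 0.766 CPM per kb, close to that of Cdkn2b. Dmrta1 rose, at 62.2 ± 9.63 CPM in wild type and 84.9 ± 5.29 CPM in cKO libraries (0.44 ± 0.14 on the log2 scale, adjusted p = 0.034), a call that was lost without wild-type library 2 (adjusted p = 0.37), cKO library 1 (0.324) or cKO library 2 (0.162), with thinned counts (0.0581) and by DESeq2 (0.303). It was also lost with library totals alone, upper-quartile factors and housekeeping scaling (adjusted p = 0.0772, 0.127 and 0.0564). On the Mtap side, the lncRNA gene Wincr1 (0.37 ± 0.20) and the microRNA gene Mir31 (−0.07 ± 0.37) were not called. The type I interferon cluster, beyond Mir31, whose near-identical copies make counts uncertain, had 8 tested genes and no call (log2 fold changes −0.24 to 0.66).

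**Figure D3:**
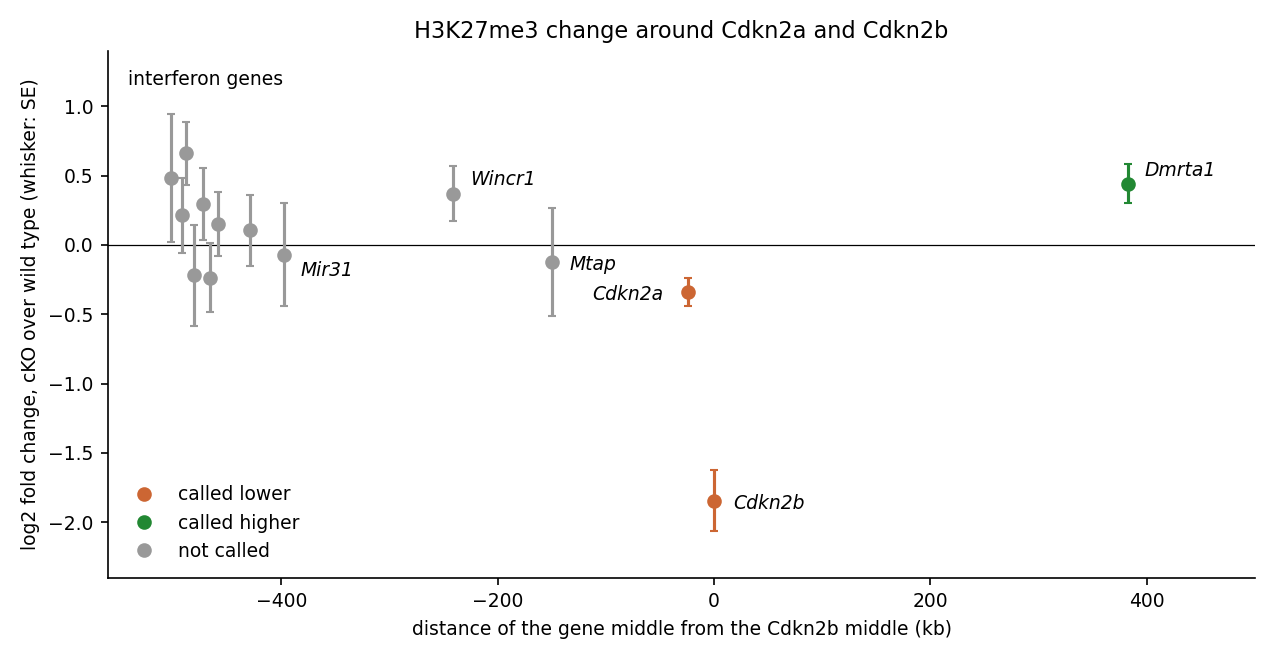
Log2 fold change (cKO over wild type, whiskers SE) of tested genes by the distance of their middle from that of Cdkn2b in kb. Cdkn2b at −1.84 and Cdkn2a at −0.34 are called lower, Dmrta1 at 0.44 is called higher, and the others are not called.

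The other Ink4 genes gave too few counts to read a change. Cdkn2c, which encodes p18INK4C (chromosome 4, 109660876 to 109666756), had 24 and 7 counts in wild type and 17 and 11 in cKO, or 9.31 and 3.21 CPM against 5.198 and 3.21. The groups overlapped, with wild-type library 1 standing apart, and the log2 fold change was −0.61 ± 0.50 (adjusted p = 0.563). It turned to 0.39 (adjusted p = 0.882) without wild-type library 1. Both counted neighbours of Cdkn2c were called lower, beside 1.96% of all tested genes, and so small a count describes these genes only. The lncRNA gene 9630013D21Rik, whose window covers 22.8% of that of Cdkn2c, went from 39.0 ± 5.23 to 24.4 ± 2.27 CPM (−0.68 ± 0.20, adjusted p = 0.0193). Faf1, which encodes a Fas-associated factor, went from 34.0 ± 7.55 to 20.3 ± 5.52 CPM (−0.74 ± 0.22, adjusted p = 0.0202). By DESeq2 neither was called (adjusted p = 0.319 and 0.348), nor was either without cKO library 2 (0.302 and 0.511), with thinned counts (0.0659 and 0.0926) or with housekeeping scaling (0.306 and 0.251). The first also lost its call without wild-type library 1 (0.286) or cKO library 1 (0.0702), and Faf1 without wild-type library 2 (0.425). Cdkn2d, which encodes p19INK4D (chromosome 9, 21288459 to 21291421), had 0 and 5 counts in wild type and 1 and 3 in cKO and was not tested. The count of 0 allows up to 1.16 CPM in that library. Other windows cover 92.8% of the Cdkn2d window, and reads shared between windows may not have been counted, so its level cannot be read.

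Of the Cip/Kip genes, Cdkn1c was well marked, and no difference was detected. Cdkn1c encodes p57KIP2 (chromosome 7, 143458339 to 143461059, no overlap), and its window held 110 and 83 counts in wild type and 132 and 158 in cKO. These are 42.7 and 38.0 CPM against 40.4 and 46.1, with overlapping groups. The log2 fold change was 0.10 ± 0.18 (adjusted p = 0.832), and the counting interval of the pooled ratio, 0.888 to 1.29, did not reach the size of the Cdkn2b decrease. Beside it, Kcnq1, a potassium channel gene of the same imprinted domain with 31.7% of its window overlapped, rose from 760 ± 25.8 to 926 ± 13.0 CPM (0.28 ± 0.08, adjusted p = 0.0154). That call was lost when either cKO library was left out (adjusted p = 0.124 without the first, 0.264 without the second), with upper-quartile factors (0.0861) and with housekeeping scaling (0.238). Slc22a18, on the other side, was not called (−0.09 ± 0.28).

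Cdkn1a and Cdkn1b carried little mark in either genotype and fell below the count filter. The wild-type level per kb of Cdkn1a lay above 12.7% of tested genes and that of Cdkn1b above 33.6%. Cdkn1a, which encodes p21CIP1 (chromosome 17, 29090979 to 29100722, no overlap), had 7 and 3 counts in wild type and 11 and 7 in cKO, a pooled ratio of 1.28 with a counting interval of 0.560 to 3.11. Its groups overlapped in CPM. Cdkn1b, which encodes p27KIP1 (chromosome 6, 134920401 to 134925525), had 10 and 7 counts and 9 and 6, a ratio of 0.628 with an interval of 0.292 to 1.34. Both wild-type CPM of Cdkn1b (3.88 and 3.21) lay above both cKO CPM (2.75 and 1.75), and 21.9% of its window is shared with the lncRNA gene Lockd. Without a count filter the adjusted p was 0.876 for Cdkn1a, 0.752 for Cdkn1b and 0.856 for Cdkn2d. The interval of Cdkn1a includes a 2-fold increase and that of Cdkn1b a 2-fold decrease, so changes of that size were not detectable at this depth. The lncRNA gene Trp53cor1, the neighbour of Cdkn1a on one side, stood at 1.35 ± 0.169 CPM per kb in wild type, above Cdkn1a, and was not called (−0.13 ± 0.19).

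Across the 7 genes, then, 4 passed the count filter, 2 were called lower and 0 higher, beside 1.96% of all tested genes called lower and 4.46% called higher. Of the 4 tested, 2 had both wild-type CPM above both cKO CPM, beside 23.8% of tested genes. The median log2 fold change of the 4 was −0.47, beside −0.01 for all tested genes. The 2 called genes are neighbours in 1 locus and not independent, and with 4 genes the count describes these genes only.

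**Figure D4:**
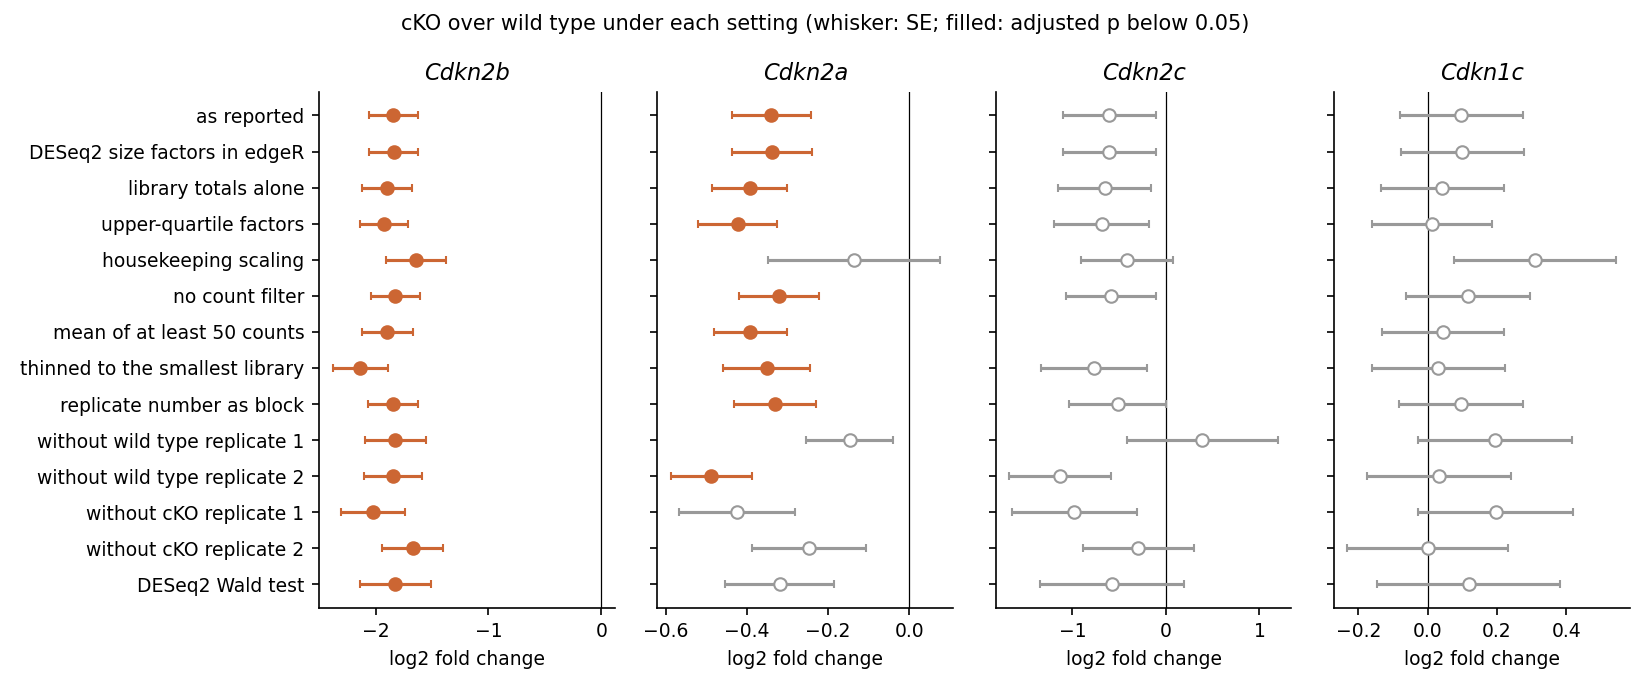
Log2 fold change of the 4 tested Cdk inhibitors under each normalization, filter, tool and left-out library (whiskers SE, filled where the adjusted p is below 0.05). Cdkn2b stays between −2.13 and −1.64 and is called throughout, Cdkn2a between −0.49 and −0.14 is called in 8 of 13 alternatives, and Cdkn2c and Cdkn1c in none.

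Genes with the values most like those of the 2 called members were found by the Euclidean distance of log2(CPM per kb + 0.1) over the 4 libraries, leaving out predicted genes. Nearest to Cdkn2b were Lpcat2, Pura, Acsl3, Serpinb8 and Lrrc55, at distances of 0.901 to 1.10, so no gene matched it closely. Closeness was measured over both genotypes, so a lower value in cKO follows from the choice and is a description only. All 5 were called lower, with log2 fold changes of −0.96, −0.89, −0.80, −1.72 and −0.72, all smaller than the −1.84 of Cdkn2b. The calls of Lpcat2 and Serpinb8 held under every alternative, that of Acsl3 was lost with housekeeping scaling (adjusted p = 0.0817), and those of Pura and Lrrc55 were lost there, by DESeq2 and without wild-type library 1, and that of Lrrc55 also without either cKO library. Nearest to Cdkn2a were Fezf2, Hoxb1, Plk5, Msx2 and Paqr9, at distances of 0.252 to 0.310. Several of these encode developmental regulators, and none was called (log2 fold changes −0.24 to −0.06).

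The partners of the inhibitors mostly carried little H3K27me3. Their calls, given list by list, stand beside 6.42% of all tested genes called, and nothing particular to the lists is read from them. Of 17 cyclin and Cdk genes of G1 and S phase, 9 were tested and 0 called, with a median log2 fold change of −0.26. Ccnd1, the cyclin D1 gene and the highest of them at 2.12 CPM per kb, had 33.9 and 26.6 CPM (−0.35 ± 0.21, adjusted p = 0.360, 42.9% of its window overlapped). Of 18 genes for pocket proteins, the retinoblastoma family, and their E2F and DREAM complex partners, 14 were tested, 1 was called lower and 0 higher (median −0.24), and all 18 stood below the median level of tested genes. The one called was Tfdp2, an E2F dimerisation partner, which fell from 21.2 ± 0.188 to 9.30 ± 2.41 CPM (−1.19 ± 0.30, adjusted p = 0.00289), a call lost without cKO library 2 (adjusted p = 0.132) and by DESeq2 (0.133). Of 12 genes of the p53 branch that p19ARF feeds, 6 were tested and 0 called (median −0.08). The highest was Trp73, a p53 family gene, at 2.73 CPM per kb, with 246 CPM in wild type and 244 in cKO (−0.01 ± 0.10).

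Of 18 related kinase, TGF-β and Foxo pathway genes, 14 were tested, 1 was called higher and 0 lower (median −0.16). Tgfb2 (TGF-β2, a secreted ligand) rose, with 29.6 ± 3.47 CPM in wild type against 82.4 ± 5.78 (1.48 ± 0.16, adjusted p = 8.18e-15). TGF-β is a known inducer of Cdkn2b. A link between the changes at Tgfb2 and Cdkn2b was not tested, and no RNA was measured here. The strongest marked of that list, Cdk5r2, an activator of Cdk5, stood at 17.2 CPM per kb, above Cdkn2a, and had 149.9 and 150.5 CPM (adjusted p = 0.998). Smad3, a TGF-β signal transducer at 3.29 CPM per kb, was likewise not called (0.07 ± 0.09, adjusted p = 0.734).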

How the data were processed

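H3K27me3 Cut&Tag counts were analysed for 2 wild-type and 2 Suz12 cKO libraries, each from 100000 cells, grouped by sample title. The deposited values are whole-number counts per Entrez gene made by the authors on mm10 with featureCounts, per the submitters' processing notes. Aligner, duplicate handling and counting options: not given in the sources used here. Deposited window lengths equal the gene span plus 6000 bp for 11525 of the 27095 genes. Among the members this holds for Cdkn2a, Cdkn2b and Cdkn1b, while the lengths of Cdkn2c, Cdkn2d, Cdkn1a and Cdkn1c are shorter. Symbols were matched in the GRCm38.p6 RefSeq table (93.0% of IDs).

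Counts were fitted over all genes with edgeR 4.0.16 (R 4.3.3; filterByExpr, TMM, glmQLFit and glmQLFTest, genotype only), and p-values were Benjamini-Hochberg adjusted over the 16752 genes kept. The other 10343 genes were not tested. SEs are the log2 fold change over the square root of F. The fit was tested on simulated data with 50 genes changed at each size. It recovered 20% of 1.5-fold, 56% of 2-fold, 70% of 3-fold and 72% of 4-fold changes. Changes are thus often missed, the small ones most often. Of its 119 calls, 10 were false, so a call can also be wrong. The labels call the libraries biological replicates. CPM of all genes use the TMM sizes, and window overlaps use RefSeq positions with 3000 bp on each side. Overlaps and unshared lengths are therefore approximate for genes whose deposited length differs from that. Named genes were the members, every counted gene within 500 kb of Cdkn2a or Cdkn2b and the nearest on each side of the others, the called genes and 3 highest in level of each pathway list, and the 5 nearest in value to Cdkn2a and Cdkn2b. The text gives a selection. Members and lists were chosen with earlier results of these data known. Genes within 1.5-fold in level were added after the values were seen. Alternatives changed the scaling, filter, tool, depth, replicate block and libraries.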

Additional observations from a re-analysis of the deposited data

How the results depend on the processing

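Cdkn2b was called lower under all 13 alternatives, with log2 fold changes of −2.13 to −1.64, and Cdkn1c under none (0.0003 to 0.31). Cdkn2a was lower in all 13 and called in 8. With library 1 or 2 of either genotype left out, it lay between −0.49 and −0.15, Cdkn2c between −1.13 and 0.39, the members called lower numbered 1 to 2, all genes called 426 to 945 and those called lower 76 to 207, against 1076 and 329. By DESeq2 367 genes were called, 45 of them lower, with 1 member and Cdkn2a at −0.32 (adjusted p = 0.242). Scaling to 24 housekeeping genes, which rests on 288 to 398 counts per library, moved the all-gene median by 0.21 (log2), left 59 genes called lower, 1 of them a member, and put Cdkn2a at −0.14 (adjusted p = 0.777). Upper-quartile factors gave 519 lower. Gains were 69.4% of calls as reported, 55.7% with library totals, 48.8% by upper quartile and 92.1% with housekeeping scaling. Per kb of unshared window, Cdkn1b stood at 0.407 and Cdkn2d at 2.67 CPM. The cause of these changes was not tested. Same-numbered libraries showed no shared deviation (correlation 0.00844 across genes). With 2 libraries per genotype the crossed pairing gives the same value with the opposite sign, so this cannot settle whether the numbers mark pairs. With the replicate block Cdkn2a was at −0.33 (adjusted p = 0.0235), Cdkn2b at −1.84, and 733 genes were called higher and 306 lower. Depth limits Cdkn1a, Cdkn1b, Cdkn2c and Cdkn2d.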
